A study of Mus musculus with 7 samples.

Results

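Fos binding was examined at 10 genes, namely Srf, Mef2a, Mef2c, Mef2d, Creb1, Crem, Crebbp, Ep300, Crtc1 and Crtc2. They encode transcription factors and coactivators that couple neuronal activity to transcription. They were taken by name, as 10 of the 21887 protein-coding genes of the RefSeq table for GRCm38.p6, with earlier results of these data known. A Fos peak was assigned to a gene when it lay within 10 kb of the gene's span. By this rule 68 of the 68873 merged regions of the study belonged to the 10 genes.

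The peaks come from chromatin immunoprecipitation and sequencing (ChIP-seq) with an anti-Fos antibody on hippocampal tissue of wild-type C57BL/6J mice aged 2 months. The treated group received kainic acid, a glutamate receptor agonist that provokes seizures, as 2 intraperitoneal injections of 10 mg/kg given 30 min apart, and mice that reached seizure level 4 were sacrificed 1 hour after the first. The control group received saline. Each group has 3 libraries, and 1 input library is not analysed here. The labels do not say how many mice each library holds or that libraries came from separate animals, so spread between them may be technical.

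In activated neurons, calcium entry and kinase signalling act on factors already present in the cell. SRF binds CArG boxes with ternary complex factors or MRTF coactivators. MEF2 proteins are released from class II histone deacetylases by calcium signalling. Phosphorylated CREB recruits the acetyltransferases CBP (Crebbp) and p300 (Ep300), while CRTC proteins enter the nucleus and bind CREB. These factors drive immediate early genes, among them Fos itself, whose product pairs with Jun proteins to form AP-1. The 10 genes are therefore grouped here as upstream of Fos, an order that was not tested for each of them. A peak within 10 kb of one of them does not show that Fos acts on that gene, which was not tested.

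The kainic acid lists hold 15009, 63197 and 29650 peaks for replicates 1, 2 and 3, and the saline lists hold 7, 3277 and 2. A saline count of 0 in replicates 1 and 3 thus comes from lists that could hold almost nothing, and only saline replicate 2 can show a peak at most genes. The deposited fold compares a peak with a local background estimated separately for each list, so it is used here only as a rank. Which library supplied that background is not given. A percentile rank of 0 is the highest fold of a list and 100 the lowest. The lists carry no read totals, so library depth is unknown. The number of reads over a summit was solved from the deposited fold and −log10 p under the MACS2 peak model, and all 113 peaks near the 10 genes gave a whole number within 0.001 in −log10 p. These summit reads ran from 11 to 110.

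After kainic acid, 9 of the 10 genes had a region that at least 2 of the 3 lists share, called a kainic acid region here. Srf was the exception. By the same rule 40.0% of all protein-coding genes had such a region. Long genes meet the rule more often, and the 10 genes include long ones. Of the 3 genes with a span under 50 kb (Srf, Mef2d and Crtc2), 2 had a region, against 31.2% of all genes of that class. All 6 genes of 50 to 150 kb had one, against 63.4%, as did Mef2c, the only gene over 150 kb, against 86.1%. In total the 10 genes had 27 kainic acid regions in 959.4 kb searched, 2.81 per 100 kb, against 1.58 per 100 kb pooled over all protein-coding genes. Mef2c and Mef2d gave 9 and 6 of the 27, at 4.92 and 11.96 per 100 kb. The other genes ranged from 0 (Srf) to 3.3 per 100 kb (Crtc2), so the pooled value rests largely on Mef2c and Mef2d.

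**Figure D1:**
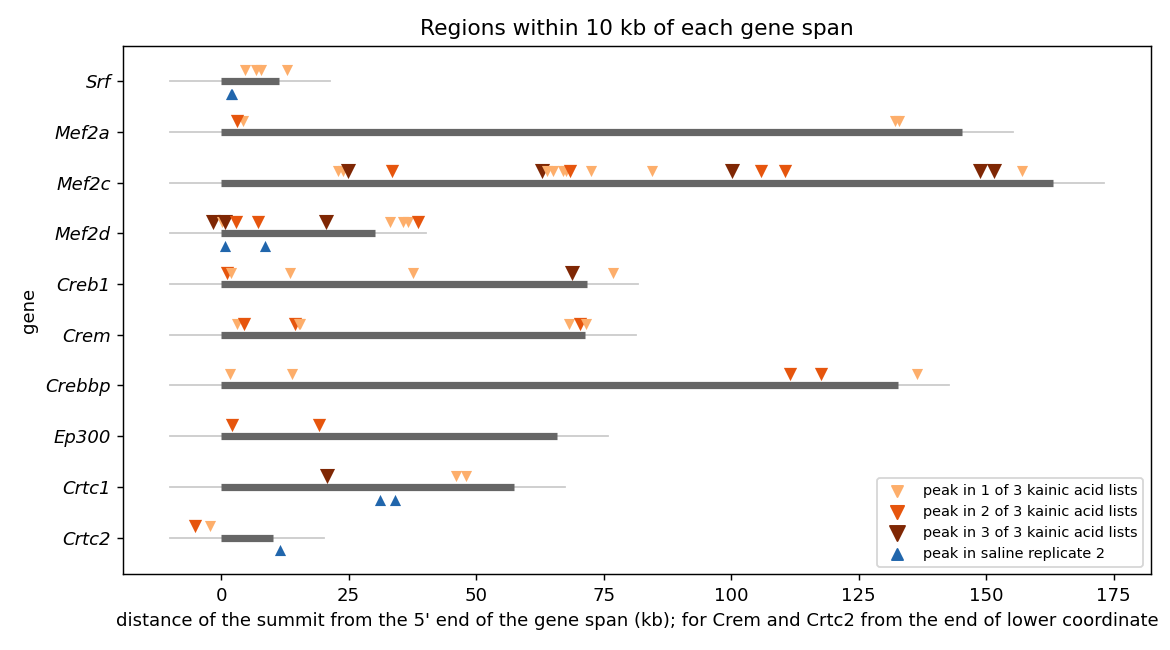
Position of every region within 10 kb of the 10 genes. The x axis is the distance of the summit in kb from the 5′ end of the gene span (for Crem and Crtc2 from the end of lower coordinate), thick bars are gene spans and thin lines the 10 kb flanks. Triangles above a bar are regions with peaks in 1, 2 or 3 kainic acid lists, and blue triangles below a bar are peaks of saline replicate 2. Mef2c and Mef2d carry 15 of the 27 regions seen in at least 2 lists, and Srf carries none.

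Replicate support was uneven. Regions in all 3 kainic acid lists occurred at 4 genes, Mef2c with 5, Mef2d with 3, and Creb1 and Crtc1 with 1 each. Of protein-coding genes of any span, 23.9% had at least 1. Of the 27 regions, 10 were in all 3 lists, which is 37.0% against 44.4% of all 26862 kainic acid regions. Of the 17 in exactly 2 lists, 15 were in replicates 2 and 3, the longer lists. A further 35 regions had a peak in 1 list only, 27 of them in replicate 2. These 35 are 56.5% of the 62 regions with a kainic acid peak, and the share over the whole genome was 59.7%.

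The counts depended on which libraries were used. With kainic acid replicates 1 and 3 alone, 5 genes had a region (Mef2c, Mef2d, Creb1, Ep300 and Crtc1), against 23.9% of all protein-coding genes. With replicates 1 and 2 alone it was 4 genes (Mef2c, Mef2d, Creb1 and Crtc1), against 25.6%. The regions at Mef2a, Crem, Crebbp and Crtc2 therefore rest on replicates 2 and 3 together. Stronger peaks alone left fewer genes, 6 with a deposited −log10 q of at least 5 (32.9% of protein-coding genes) and 3 with at least 10 (19.6%). The 6 were Mef2a, Mef2c, Mef2d, Creb1, Crem and Crtc1, and the 3 were Mef2c, Mef2d and Creb1.

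In single lists, 6 of the 10 genes had a peak in kainic acid replicate 1 (26.4% of protein-coding genes), all 10 in replicate 2 (60.3%) and 9 in replicate 3 (40.9%). These shares are over genes of all spans and were not matched for length. None had a peak in saline replicate 1, where 0.0137% of protein-coding genes did, or in saline replicate 3, where 0% did.

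**Figure D2:**
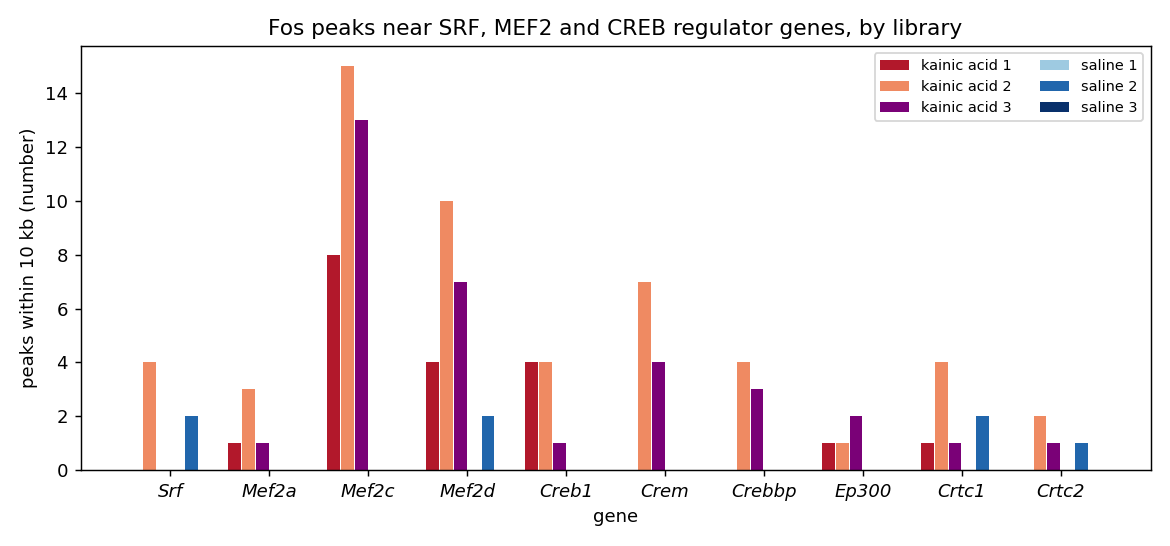
Number of peaks within 10 kb of each gene in each of the 6 libraries (bars from 0, 1 bar per library). Saline replicates 1 and 3 have no peak at any of the 10 genes, and Mef2c has the most peaks in each kainic acid list, from 8 to 15.

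The SRF arm is represented by Srf itself, which encodes serum response factor (GRCm38 chromosome 17, 46546838 to 46558267, minus strand). Srf had 0, 4 and 0 peaks in kainic acid replicates 1, 2 and 3 and 0, 2 and 0 in saline replicates 1, 2 and 3. The libraries of the 2 groups overlap, and in each group a single library holds all peaks. Kainic acid libraries had a mean of 1.33 ± 2.31 peaks (SD, n = 3) and saline libraries one of 0.667 ± 1.15 (SD, n = 3). The difference was 0.667, with p = 1.0 in the two-sided exact permutation test. Without kainic acid replicate 2 the difference was −0.667.

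The peaks of the 2 groups lay at different places in Srf. Both saline replicate 2 peaks overlapped the RefSeq start window, from 250 bases before the start to 50 after it. One (46556211 to 46556419) had its summit 122 bp before the start site, with 22 reads and fold 3.93. The other (46555923 to 46556134) had it 130 bp after the start, with 19 reads and fold 3.69. Saline replicate 2 had a peak at the start window of 6.89% of the 17492 protein-coding genes with a window. The 4 peaks of kainic acid replicate 2 had summits 2632, 4668, 5768 and 10735 bp downstream of the start, with 17 to 19 reads each. The farthest of them lay outside Srf, inside the neighbouring gene Cul9. Peaks seen in 1 library have no replicate support in either group.

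Start windows are shown for the gene whose only saline peaks sit on the window and for the gene where kainic acid peaks reach it. The 250 bases before the RefSeq start (GRCm38.p6) are printed on the gene's own strand, 5′ to 3′, and capitals mark CArG boxes, the SRF site.
Srf, chr17:46556163-46556412, minus strand: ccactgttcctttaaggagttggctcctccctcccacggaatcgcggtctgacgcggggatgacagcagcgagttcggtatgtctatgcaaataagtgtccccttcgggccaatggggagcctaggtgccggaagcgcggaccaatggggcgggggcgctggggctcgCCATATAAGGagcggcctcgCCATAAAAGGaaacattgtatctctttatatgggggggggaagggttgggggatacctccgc
Mef2d, chr3:88142122-88142371, plus strand: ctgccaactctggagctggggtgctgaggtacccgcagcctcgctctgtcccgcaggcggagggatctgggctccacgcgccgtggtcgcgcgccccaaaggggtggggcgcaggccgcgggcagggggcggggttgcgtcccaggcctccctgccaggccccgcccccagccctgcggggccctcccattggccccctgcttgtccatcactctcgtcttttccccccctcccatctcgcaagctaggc

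The Srf window holds 2 CArG boxes, CCATATAAGG from base 82 to base 73 before the start and CCATAAAAGG from base 62 to base 53. A CArG box on either strand occurred in 1.47% of the 32851 RefSeq windows of this length. The same windows were searched on both strands for TGANTCA (AP-1), TGACGTCA (the CRE, bound by CREB) and the MEF2 box. They occurred in 6.75%, 1.55% and 2.92% of windows. RefSeq gave 10 windows for 8 of the 10 genes, none for Crem and Crtc2, and 8 of the 10 windows held none of the 4 motifs. The only other match was TGAATCA from base 137 to base 131 before the most downstream of the 3 Mef2c starts. No match says only that these letters are not in these 250 bases. Both CArG boxes of the Srf window lie inside the saline replicate 2 peak at 46556211 to 46556419, which has no replicate support. Sequence under peaks outside these start windows was not used here.

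The 3 MEF2 genes differed widely in their number of regions. Mef2c and Mef2d had the most kainic acid regions of the 10 genes, 9 and 6, and Mef2a had 1.

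Mef2c, which encodes a MEF2 factor of excitatory neurons and other cell types (chromosome 13, 83504017 to 83667079, plus strand), had 8, 15 and 13 peaks in kainic acid replicates 1, 2 and 3 and 0 in each saline library. The groups do not overlap, but saline replicates 1 and 3, with 7 and 2 peaks in all, could hardly have overlapped. The mean was 12.0 ± 3.61 (SD, n = 3) against 0 in all 3 saline libraries, with p = 0.1 in the two-sided exact permutation test, the smallest value that 3 libraries against 3 allow. All 9 regions lay inside the gene and none had a saline peak. Among protein-coding genes over 150 kb the median was 4.0 regions, and 22.5% had 9 or more. With the length searched taken into account, Mef2c had 4.92 regions per 100 kb, a density that 7.95% of all protein-coding genes reached.

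The Mef2c region of best mean fold rank (83564994 to 83567585) had folds of 9.68, 14.4 and 6.18 in kainic acid replicates 1, 2 and 3, at percentile ranks 2.08, 1.47 and 12.4. Its highest summits carried 51, 58 and 58 reads and lay within 175 bp of each other, 6751 bp before the most downstream RefSeq start. Replicates 1 and 3 had a second, lower peak in the same region. The next in rank (83603936 to 83604736) had folds of 5.38, 9.62 and 7.68, with summits within 38 bp. It lies 30673 bp past that start, where the table also has the long non-coding RNA gene Gm52043. The region at 83652013 to 83653454 (folds 5.20, 7.01 and 6.36, summits within 313 bp) overlaps the long non-coding RNA gene Gm52044. That at 83528296 to 83529201 (folds 5.24, 5.72 and 6.87, summits within 436 bp) lies 5189 bp past the second RefSeq start. All 4 had a mean percentile rank under 25. The fifth region in all 3 lists (83654790 to 83656440) ranked at 52.0. The 4 regions in replicates 2 and 3 only ranked from 29.9 to 75.6. Without replicate 3 the Mef2c count was 5.

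Mef2d, a MEF2 gene expressed in many tissues (chromosome 3, 88141941 to 88172091, plus strand), had 4, 10 and 7 peaks in the kainic acid libraries and 0, 2 and 0 in the saline libraries. Every kainic acid library held more peaks than any saline library. The mean was 7.0 ± 3.0 peaks (SD, n = 3) after kainic acid against 0.667 ± 1.15 (SD, n = 3) after saline, a difference of 6.33 with p = 0.1 in the exact permutation test. Its 6 regions fell in a window of 50.2 kb, or 11.96 per 100 kb, and 0.772% of all protein-coding genes had a density as high. Of protein-coding genes with a span under 50 kb, 0.336% had 6 regions or more. Without replicate 3 the Mef2d count was 3.

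The Mef2d region of best mean fold rank (88162009 to 88162892) lies 20190 bp past the start, with folds of 5.62, 13.9 and 6.52 in kainic acid replicates 1, 2 and 3, 39, 82 and 55 reads, and summits within 21 bp. A second region (88142334 to 88143169) begins in the start window, and its summits lie within 37 bp of each other, about 284 bp past the start. Only its peaks in kainic acid replicates 2 and 3 reach the window. Those of kainic acid replicate 1 and saline replicate 2 begin past it. Among the 8 genes with a start window this region was the only kainic acid region to overlap one, which 5.55% of protein-coding genes with a window had. It was also the only 1 of the 27 (3.70%) with a saline peak, against 2.01% of all kainic acid regions. Its summit reads were 53, 110 and 83 in kainic acid replicates 1, 2 and 3 and 32 in saline replicate 2, with folds of 4.70, 11.9, 6.30 and 4.96. In each kainic acid list its −log10 q was above that of the region of best mean fold rank. The values were 16.6, 77.0 and 35.8 against 15.0, 64.3 and 24.8 in replicates 1, 2 and 3. Reads are not scaled between libraries, so their order between the groups was not tested.

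The third Mef2d region in all 3 lists (88138345 to 88141389) ends 552 bp before the gene span and is 3045 bp wide. The summits of highest fold in the 3 lists lay up to 1511 bp apart. Replicate 2 had its peak in the region at percentile rank 3.72, and replicates 1 and 3 each had a pair of lower peaks, at best ranks 79.1 and 42.7. The other peak of each pair had its summit close to that of replicate 2. These summits lay at 88139082, 88139115 and 88139122 in replicates 1, 2 and 3, with 36, 94 and 51 reads. The 3 regions in replicates 2 and 3 only ranked from 49.8 to 79.4. A further peak of saline replicate 2 (88150425 to 88150750, fold 4.41) had no kainic acid peak.

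Mef2a, another broadly expressed MEF2 gene (chromosome 7, 67231163 to 67376456, minus strand), had 1, 3 and 1 peaks with kainic acid and 0 in each saline library, which gave p = 0.1 in the exact permutation test. Its 1 region (67373111 to 67373691) begins just before the RefSeq start window, with summits about 483 bp before the start. It was called in replicates 2 and 3 with 41 and 36 reads, but over a background of 9.13 and 12.3 reads, so the folds were 4.14 and 2.78 and the mean percentile rank was 76.4. Ranked by the deposited −log10 q, an order chosen after the data were seen, the same region stood at 42.9. Of genes of 50 to 150 kb, 63.4% had 1 region or more.

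In the CREB arm, Creb1 encodes CREB, the activator phosphorylated on calcium and cyclic AMP signals (chromosome 1, 64532794 to 64604548, plus strand). It had 4, 4 and 1 peaks with kainic acid and 0 in each saline library, a mean of 3.0 ± 1.73 (SD, n = 3) against 0 and p = 0.1 in the exact permutation test. Creb1 held the region with the best mean fold rank of the 27 (64600892 to 64602330), near the 3′ end of its span and 68864 bp past the start. The folds there were 8.11, 15.5 and 9.94 in kainic acid replicates 1, 2 and 3, which is rank 715 of 15009, 703 of 63197 and 549 of 29650. The summits carried 36, 62 and 54 reads and lay within 128 bp. No saline library had a peak in it. By mean rank of −log10 q it stood at 3.24, behind the first Mef2c region at 3.02, which also had the higher fold in replicate 1. Only the region of best mean fold rank at each gene was ranked by −log10 q, so this is not a place among the 27. The other Creb1 region (64533864 to 64534498), 1253 bp past the start, was in replicates 1 and 2 at percentile ranks 95.5 and 46.7, with summits 12 bp apart.

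Crem encodes CREM, whose locus also gives the short repressor ICER from an internal promoter (chromosome 18, 3266354 to 3337773). It had 0, 7 and 4 peaks in kainic acid replicates 1, 2 and 3 and 0 in each saline library. Because replicate 1 had none, the groups share the value 0, and the exact permutation test gave p = 0.4. Its 3 regions lay inside the span. The best by mean fold rank (3270404 to 3271053) had folds of 7.02 and 4.18 in replicates 2 and 3. A second (3280678 to 3281260) had more summit reads, 72 and 43, over a higher background, with folds of 7.21 and 3.55. Its −log10 q was the higher in both lists, 35.6 and 9.67 against 13.5 and 6.68. The third (3336496 to 3336961) had folds of 4.73 and 3.07 and overlaps the non-coding gene Gm6225. RefSeq gave no start window for Crem, so no distance to a start is given.

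Among the coactivators, the acetyltransferase genes had 2 regions each, all with a mean percentile rank above 50. Crebbp (chromosome 16, 4081334 to 4213957, minus strand) had 0, 4 and 3 peaks with kainic acid and 0 in each saline library (exact permutation p = 0.4). Its regions at 4096198 to 4096679 and 4102232 to 4102563 lie 117024 and 111017 bp past the start, with 11 to 27 reads at a summit and mean percentile ranks of 58.3 and 69.8. Ep300 (chromosome 15, 81586209 to 81652077, plus strand) had 1, 1 and 2 peaks with kainic acid and 0 in each saline library. That is a mean of 1.33 ± 0.577 (SD, n = 3) against 0, with p = 0.1 in the exact permutation test. Its regions lie 2220 and 19150 bp past the start, with mean percentile ranks of 88.4 and 65.6. The first was called in replicates 1 and 3 and the second in replicates 2 and 3.

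The 2 CRTC genes, which encode CREB coactivators held in the cytoplasm until dephosphorylated by calcineurin, had 1 region each. Crtc1 (chromosome 8, 70382352 to 70439702, minus strand) had 1, 4 and 1 peaks with kainic acid and 0, 2 and 0 with saline. The groups overlap, and the exact permutation test gave p = 0.5. Its region (70418594 to 70419927) was in all 3 kainic acid lists with folds of 3.79, 6.17 and 3.49, and lies 20593 bp past the start with summits within 39 bp. The 2 saline replicate 2 peaks of Crtc1 lay elsewhere, at 70405401 to 70405672 and 70408407 to 70408615. The second was high in its own list (fold 5.54, percentile rank 5.27) and had no kainic acid peak.

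Crtc2 (chromosome 3, 90253858 to 90264125) had 0, 2 and 1 peaks with kainic acid and 0, 1 and 0 with saline (exact permutation p = 0.7). Its region (90248282 to 90249088) lies 4770 bp outside the span and inside the neighbouring gene Slc39a1. Its saline peak (90265233 to 90265517) lies inside Dennd4b on the other side. No region lay inside Crtc2, so these peaks cannot be assigned to it rather than to its neighbours.

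Over the 10 genes, 5 (Mef2a, Mef2c, Mef2d, Creb1 and Ep300) had more peaks in every kainic acid library than in every saline library. Of protein-coding genes of any span, 20.7% did, a share not matched to the long genes among the 10. None of the 10 tests could fall below 0.1, so none was adjusted. Saline replicate 2 had peaks near 4 genes (Srf, Mef2d, Crtc1 and Crtc2), 7 peaks in all, against 17.0% of protein-coding genes with a peak in that list.

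**Figure D3:**
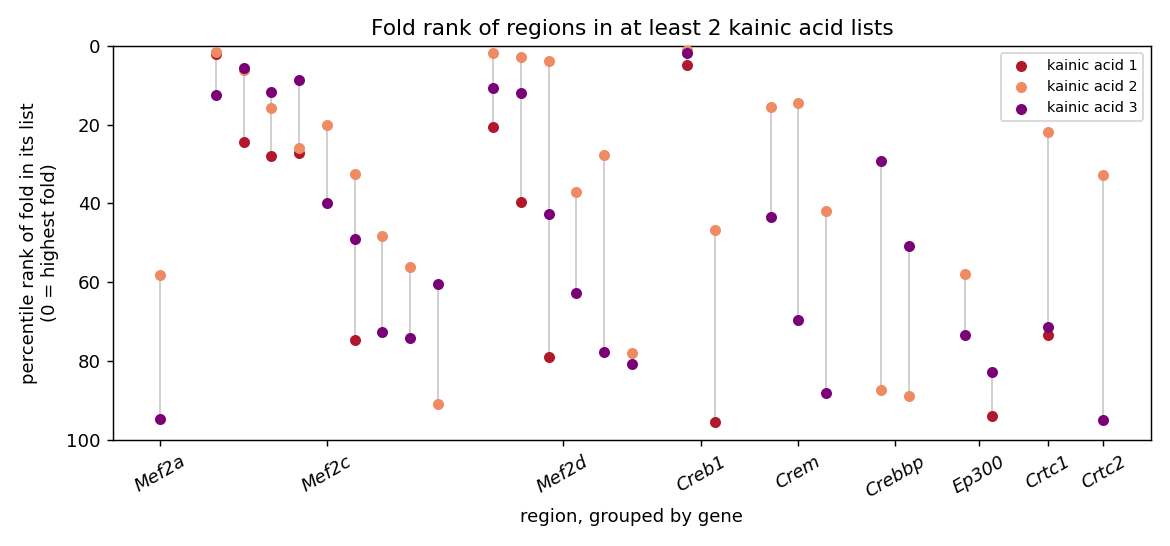
Percentile rank of the fold (y axis, 0 at the top is the highest fold of a list) for the 27 kainic acid regions, grouped by gene, 1 column per region and 1 point per library. Where a list has more than 1 peak in a region the highest is shown. The Creb1 region at the top ranks under 5 in all 3 libraries.

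The median of the mean percentile rank over the 27 regions was 52.7, from 2.57 to 88.4, and over all kainic acid regions it was 42.2. The lists differed in this. In replicate 1 only 12 of the 27 had a peak, 10 of them the regions in all 3 lists. Their median rank was 33.7, against 47.2 for all kainic acid regions of that list. In replicate 2, with 26 of the 27, it was 30.1 against 24.3, and in replicate 3, also with 26, it was 55.6 against 44.8. Of the 27, 7 (25.9%) had a mean under 25, against 24.6% of all kainic acid regions. These 7 were at Mef2c (4), Mef2d (2) and Creb1 (1). Of the 27, 24 lay inside their gene. Median width was 801 bp against 686 bp over all kainic acid regions, and the outermost summits were a median of 107 bp apart against 106 bp.

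**Figure D4:**
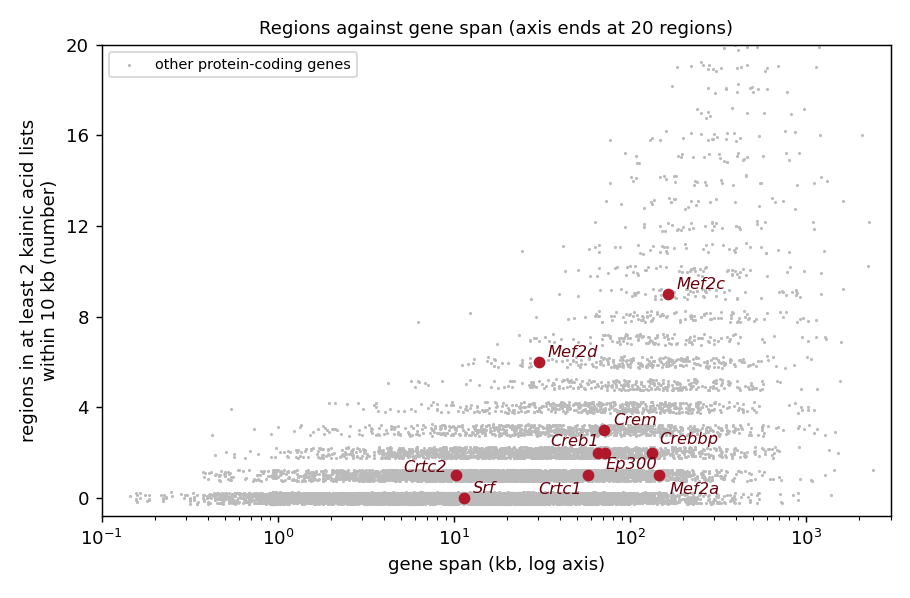
Kainic acid regions within 10 kb (y axis, number) against gene span (x axis, kb, log axis) for the 10 genes in red and the other protein-coding genes in grey, with a small random vertical shift on the grey points. The axis ends at 20 regions and leaves out 65 grey genes. Mef2d, with 6 regions, lies above nearly all genes of its span, and Srf, Mef2a and Crtc1 lie among the bulk.

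The other genes of the 3 pathways were taken from a list of 23, also chosen with earlier results of these data known. Of these, 18 (78.3%) had a kainic acid region, against 40.0% of protein-coding genes, and 14 had 1 in all 3 lists, against 23.9%. The list holds many long genes. All 7 of its genes over 150 kb had a region, where 86.1% of that class did, 5 of the 7 of 50 to 150 kb (63.4%) and 6 of the 9 under 50 kb (31.2%). All 5 SRF partners had a region, Mrtfa and Mrtfb being over 150 kb: Mrtfa 13, Elk3 8, Mrtfb 6, Elk4 3 and Elk1 1. Of the MEF2 relative Mef2b and the class II deacetylases, 4 of 5 had a region, namely Hdac9 with 9, Hdac5 with 7, Hdac4 with 2 and Hdac7 with 1. Per 100 kb searched, Hdac9 had 1.01 regions over a span of 869.5 kb, and Hdac5 had 12.86 over 34.4 kb. Saline replicate 2 had 5 peaks near Hdac5, 1 each near Hdac4 and Hdac7, and 0 near Hdac9 and Mef2b. The CREB relative Atf1 had 2 regions and the coactivator Crtc3 had 5.

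Of the 11 upstream kinases and phosphatase subunits 7 (63.6%) had a region, against 40.0% of all protein-coding genes and 86.1% of those over 150 kb, a class that includes some of them. Ppp3ca, a catalytic subunit of calcineurin, had 37 in a span of 268.0 kb. The genes with none were Mef2b, Camkk2, Rps6ka3, Mapk3 and Prkaca. Among the strongest regions of this list by mean rank were those at Elk3, a ternary complex factor (chromosome 10, 93274935 to 93276023, folds 7.87, 17.2 and 7.62 in replicates 1, 2 and 3), and Mrtfa, an actin-regulated SRF coactivator (chromosome 15, 81103117 to 81104289, folds 6.20, 11.0 and 8.01). Their mean percentile ranks were 3.92 and 7.73, and that of the Creb1 region was 2.57.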

How the data were processed

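Reads were trimmed with Trim Galore 0.6.4 and aligned with Bowtie2 2.3.4.3 to mm10, and MACS2 and deepTools 3.5.0 were used, per the submitters' processing notes. The peak names show a mapping quality of 30. Control library, cutoff and MACS2 version are not given in the sources used here. The authors deposited 1 list of 10 columns per library, none pooled. The deposited fold is a ratio of a peak to its local background, the deposited −log10 p and −log10 q belong to 1 library, and the deposited score is 10 times −log10 q rounded down. None is scaled between libraries.

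Peaks that overlapped by 1 bp or more were joined across the 6 lists with Python 3.11.15 and pandas 2.3.3. Gene spans came from RefSeq GRCm38.p6, which mm10 names as well. Percentile ranks use the highest peak of a list in a region and are averaged over the lists that have one. Peak numbers per gene were compared by an exact permutation test, two-sided, over the 20 ways to assign the libraries. Merging, counting and the summit solver were tested on simulated data. All 10 genes were named, with the best region of each, regions in all 3 lists and those with saline peaks. The 10 genes and the list of 23 were chosen with earlier results of these data known. Alternatives covered reach, −log10 q, number of lists, overlap, list length and each library left out. Values of 1 gene of that list are not reported here.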

Additional observations from a re-analysis of the deposited data

How the results depend on the processing

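The number of genes with a kainic acid region, 9 of 10, was 8 within the span alone and 9 at 50 kb or with summits within 200 bp. It moved to 3 with −log10 q of at least 10 (19.6% of protein-coding genes), to 4 with all 3 lists required and to 5 with equal numbers of peaks (27.0%). The 27 regions became 14 with equal numbers of peaks, 16 and 8 at −log10 q limits of 5 and 10, 10 in all 3 lists and 62 in any list. Leaving out 1 kainic acid library gave 4 to 9 genes and 11 to 25 regions, the low values without replicate 2 or 3. Fewer or shorter lists allow fewer shared regions by construction. Of 110 counts for single genes 53 moved by more than 1.5 times.

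The differences in peak number kept their direction in 114 of 120 alternatives. For 5 the difference was 0, and for Srf without kainic acid replicate 2 it reversed to −0.667. With 1 library left out at a time, the Srf difference ran from −0.667 to 1.33. With the replicate block, pairing libraries by number, the difference for Mef2c was 12.0 and an exact permutation test that flips the signs of the 3 pairs gave p = 0.25, the smallest it can give. The labels do not say that numbers mark a shared day or litter. These tests cannot pass 0.05 and say nothing about stability. With no read totals and 2 near-empty saline lists, weak binding in saline cannot be limited.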
